A study of Mus musculus with 18 samples.

Results

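Ptpn21 and 9 genes of the Hippo pathway were followed at the RNA level in 3 lines of P19 mouse embryonic carcinoma cells. They were chosen by name, as the rows of the expression table with the symbols Ptpn21, Ptpn14, Yap1, Wwtr1, Tead1, Tead2, Tead4, Lats1, Lats2 and Amotl2, which are 10 of the 55450 genes in the table. They were chosen with earlier results of these data known. All 10 were found, and all 10 passed the minimum mean of 1 TPM, taken over both lines of a comparison together, in every comparison. P19 is a diploid line of undifferentiated tumor cells. WT cells carry the unedited Dicer gene, Dicer (+/+). HetKO cells, Dicer (+/-), carry a CRISPR frameshift that truncates Dicer on one allele. HM cells, Dicer (HM/-), share that truncated allele, and their remaining allele carries a hotspot mutation in the RNase IIIb domain, a glutamate changed to glycine. Each edited genotype is a single line, and HM was made by editing HetKO a further time, so the genotype and the cloning steps cannot be told apart. Each line has 6 samples, 18 in all, from poly(A)-selected stranded libraries read as pairs. The HetKO samples stand in a separate block of sample numbers, and their titles lack the "(RNA-seq)" that WT and HM titles carry. The labels name no batch, so the HetKO line and any difference in handling between these blocks cannot be told apart. The values are TPM, the abundance of a transcript on a fixed scale, which the authors scaled to the total of a sample and to transcript length, so levels can be compared between genes but the read depth behind each value is unknown.

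The Hippo pathway is a kinase cascade that restrains growth. The kinases LATS1 and LATS2 phosphorylate the coactivators YAP and TAZ (encoded by Yap1 and Wwtr1) and keep them out of the nucleus, where they would otherwise bind DNA through the TEAD factors. PTPN21 and PTPN14 are non-receptor tyrosine phosphatases with a FERM domain at the membrane side of this network, PTPN14 and the angiomotins such as AMOTL2 bind YAP, and Lats2, Amotl2 and Ptpn14 are known targets of YAP and TAZ. In early embryos, YAP, TAZ and TEAD4 are known for their part in the choice between embryonic and trophoblast fate.

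All 8 markers of undifferentiated cells that were read as a check of the P19 label had a mean of at least 1 TPM in each line, with a summed level of 2970 to 3871 TPM per sample, most of it Pou5f1 (mean 2040 to 2095 TPM per line). Of these 8 markers 5 differed between HM and WT, where 51.4% of all genes tested did. Sox2, Lin28a and Utf1 were higher in HM and Nanog and Sall4 lower, at -1.24 and -1.83 on the log2 scale (limma adjusted p = 0.000903 and 0.0122). Sall4 was at 1.24 and 0.63 TPM in HM replicates 1 and 4, against 11.53 to 13.47 in the other HM samples and 20.16 to 27.86 in WT. The edited gene, Dicer1, was at 49.18 to 54.79 TPM in WT, 42.92 to 53.8 in HetKO and 35.42 to 44.2 in HM. Samples within a line were grouped into pairs by likeness. These were replicates 1 and 4, 2 and 5, and 3 and 6 of WT and of HetKO, and replicates 1 and 4, 2 and 3, and 5 and 6 of HM. Measured on genes averaging 200 TPM or more, the log2 difference between samples had a robust SD of 0.0493 to 0.106 within these 9 pairs and of 0.073 to 0.358 between other samples of a line. The pairs stood apart in HetKO and HM, whereas in WT replicates 2, 3, 5 and 6 all lay close together, 2 and 3 (0.073) being as near as the pair 1 and 4 (0.0746). The labels do not say whether samples came from separate cultures, so p-values measure the spread between these samples, which may be partly technical. HetKO replicates 2 and 5 stood apart in their other cell type markers. The summed level of 5 trophoblast markers was 83.47 and 70.52 TPM there, against 7.23 to 22.3 in all other samples. Nearly all of it was Eomes, at 80.75 and 67.94 TPM in this pair, with Cdx2 at 2.72 and 2.58 TPM and Elf5 and Krt7 at 0. Of that list, only Eomes had a mean of at least 1 TPM in any line, and Tpbpa was at 0 in every sample. In the same pair the summed level of 6 mesenchyme markers was 10.41 and 11.55 TPM, against 20.36 to 39.7 elsewhere. The largest part of that sum, Thy1, was at 6.25 and 6.45 TPM there and at 15.26 to 27.11 elsewhere. The 6 markers of primitive endoderm summed to 1.62 to 6.08 TPM and 5 neural markers to 4.94 to 12.42 TPM.

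The study chose Ptpn21 as a target of a passenger 3p-miRNA, the arm of a miRNA duplex that is normally discarded, and tested its 3′ UTR with miR-30a-3p. The sequences are shown because the members can be read against this miRNA. In the first line below the capitals mark the seed, bases 2 to 8. In the other lines they mark the perfect match to it, in the 22 bases of each 3′ UTR around it, read 5′ to 3′ on the gene's strand.
miR-30a-3p: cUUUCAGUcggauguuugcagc
Ptpn21, chr12:98677806-98677827, minus strand: tttgatttttattgACTGAAAa
Ptpn14, chr1:189875586-189875607, plus strand: accttcagcattgaACTGAAAa
Tead1, chr7:112899588-112899609, plus strand: ttcacgtttgaaccACTGAAAt
Lats1, chr10:7713976-7713997, plus strand: aattgaattttcaaACTGAAAc
Lats1, chr10:7714847-7714868, plus strand: tgaactcaggccctACTGAAAa
The miRNA sequence is from RefSeq, and the 3′ UTRs are the longest of each gene in GENCODE M21 (GRCm38). The Ptpn21 match begins at base 737 of a 3′ UTR of 1809 bases and is followed by an A, as are the Ptpn14 match and the second Lats1 match. The letters ACTGAAA were present in the 3′ UTR of 16.839% of the 12109 tested genes that had one, and in 4 of the 10 members. Of these, Tead1 (8147 bases), Ptpn14 and Lats1 (3450 bases) have the longest 3′ UTRs of the members and so had more sequence to match. The shares were not adjusted for length. Yap1, Wwtr1, Tead2, Tead4, Lats2 and Amotl2 held none in these 3′ UTRs. Of the other 11 miRNAs searched, which the study names or supplies sequences for, Ptpn21 also held 1 match each to the seeds of miR-7a-1-3p, miR-26a-5p and miR-30a-5p, and 1 to the seed that miR-17-5p and miR-20b-5p share. Wwtr1 held 2 matches each to the seeds of miR-7a-1-3p and miR-30a-5p, and Lats1 held 2 to miR-7a-1-3p. Ptpn14, whose 3′ UTR has 6640 bases, held 3 matches to the seed shared by miR-15b-5p and miR-16-5p, and Lats1 held 4. Of the tested genes, 20.786% held a match to miR-7a-1-3p, 11.512% to miR-26a-5p and 16.566% to miR-30a-5p. The share was 14.592% for miR-17-5p and 24.849% for miR-15b-5p. Further matches of the members are not listed. miRNA levels were not analysed here, and a match is a description of the sequence.

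The promoter windows are shown because 3 of the members are known targets of YAP and TAZ. TEAD factors bind the letters GGAATG, which read CATTCC on the other strand. RefSeq promoters (GRCm38.p6, 250 bases before to 50 after each start) were at hand for 8 members, and 6 of them held the motif. It was present in at least 1 promoter of 16.581% of all genes in the table, and in 14.663% of all promoters. Of the lists read further below, the other genes of the pathway held it in 7 of 21 and the published YAP and TAZ targets in 4 of 12. Ptpn21, Wwtr1 and Lats2 have 2 promoters each in the table and so had more sequence to match. In the following windows of 26 bases the capitals mark the motif.
Ptpn21, chr12:98737628-98737653, minus strand: ctgccgcccgCATTCCaactctctga
Ptpn21, chr12:98734619-98734644, minus strand: gggcttctgaCATTCCctgttggcca
Ptpn14, chr1:189728112-189728137, plus strand: tccccggacgCATTCCtggcccgccc
Yap1, chr9:8004722-8004747, minus strand: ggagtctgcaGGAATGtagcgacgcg
Wwtr1, chr3:57576031-57576056, minus strand: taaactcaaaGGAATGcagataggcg
Lats2, chr14:57746104-57746129, minus strand: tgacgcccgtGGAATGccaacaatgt
Amotl2, chr9:102717729-102717754, plus strand: gaaactctcaCATTCCtggcatagca
The motif lay at position -238 from the upstream Ptpn21 start and at 11 from the other. Tead2 and Lats1 held no match in their windows. Binding was not measured, and the windows were not searched for other motifs.

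In WT cells the mean level was highest for Tead2 (236.5 ± 21.9 TPM, SD, n = 6), followed by Yap1 (68.8 ± 2.86), Wwtr1 (33.5 ± 5.37), Amotl2 (21.6 ± 3.64), Tead1 (16.01 ± 1.49), Lats1 (12.3 ± 1.03), Ptpn14 (10.8 ± 0.78), Ptpn21 (7.65 ± 0.62), Tead4 (4.51 ± 0.66) and Lats2 (2.22 ± 0.55). Of neighbours in this order, the WT samples overlapped for Wwtr1 and Amotl2, for Amotl2 and Tead1 and for Lats1 and Ptpn14. No other neighbours overlapped. The order in HetKO and HM cells was the same except for Amotl2, which was 6th in HetKO and 3rd in HM, and for the genes it passed.

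**Figure D1:**
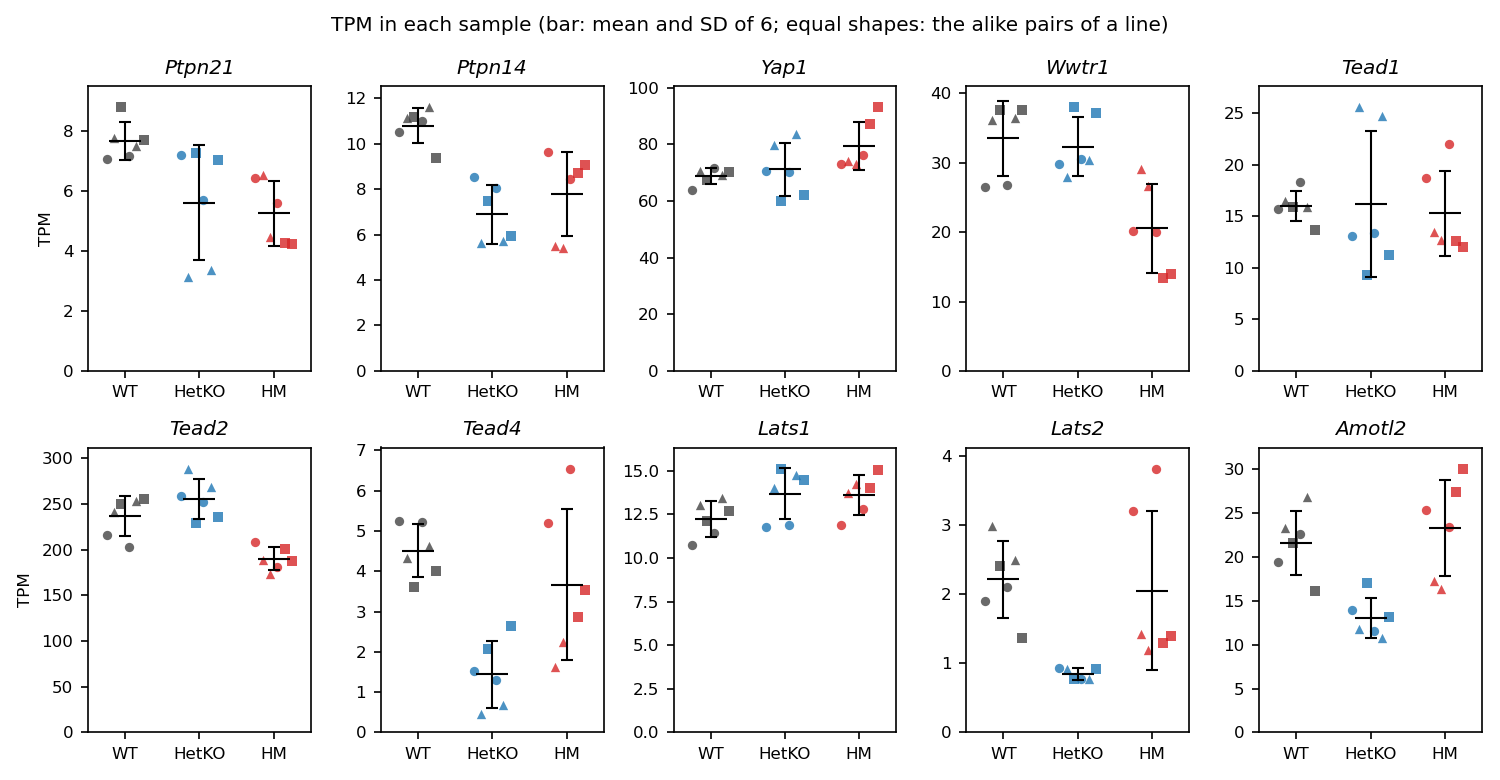
TPM of the 10 genes in every sample of WT, HetKO and HM cells, on linear axes from 0, with the mean and SD of 6 samples as black bars and the alike pairs of a line drawn with the same shape. HM lies below WT for Ptpn21 and above it for Yap1 in every sample, HetKO lies below WT for Ptpn14, Tead4 and Lats2 in every sample, and HetKO replicates 2 and 5 (triangles) are the lowest of their line for Ptpn21 and the highest for Tead1.

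Between HM and WT cells, 5 of the 10 genes differed (limma on log2(TPM + 1), adjusted p under 0.05). Ptpn21, Ptpn14, Wwtr1 and Tead2 were lower in HM and Yap1 was higher. Over all 14043 genes tested, 51.4% differed, 32.0% lower and 19.4% higher, so the members' share was near that of all genes. HM and WT samples did not overlap for 2 members, Ptpn21 and Yap1, against 28.5% of all genes. These counts include Ptpn21, which the study had picked among transcripts that fell in HM in these samples. They are descriptions of chosen genes and no independent test. Between HetKO and WT cells, 4 of the 10 genes were lower in HetKO (Ptpn14, Tead4, Lats2 and Amotl2) and none was higher, against 10.2% called among 13999 genes, 6.44% lower and 3.71% higher. No overlap was seen for 3 members (Ptpn14, Tead4 and Lats2) and for 8.21% of all genes. Between HM and HetKO cells, Tead4, Lats2 and Amotl2 were higher and Wwtr1 and Tead2 lower in HM, 5 of 10 genes against 34.6% of 13762, 14.0% higher and 20.6% lower. Tead2 and Lats2 did not overlap, against 15.5% of all genes. Lats2 averaged 0.848 TPM in HetKO, so it entered both comparisons with HetKO only through the other line. HM and HetKO were compared with the same WT samples, and the third comparison reuses both lines, so the 3 comparisons are not independent. The median log2 fold change of the members was -0.22 in HM against WT, -0.26 in HetKO against WT and 0.07 in HM against HetKO, beside -0.09, -0.03 and -0.05 for all genes tested.

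These calls had 2 limits. With the mean of each alike pair as 1 replicate, 3 per line, limma called 0 of the 10 genes in each comparison (4, 4 and 3 had an unadjusted p under 0.05), and 3414, 35 and 454 of all genes. With each sample centred on its median, the median of all genes moved from -0.09 to 0.08 in HM against WT and the share of called genes that were higher from 37.7% to 61.0%, and the members split 2 higher to 2 lower in place of 1 to 4, while the share moved from 36.5% to 50.7% in HetKO against WT and from 40.4% to 60.9% in HM against HetKO, where the members' split did not move.

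**Figure D2:**
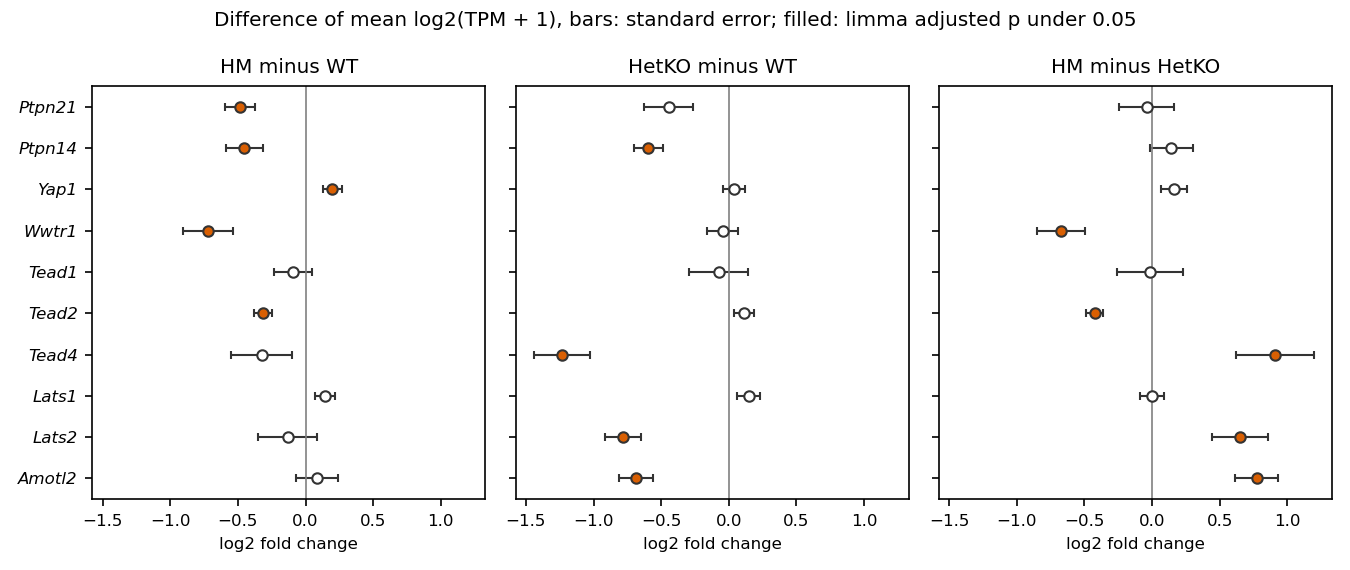
Log2 fold change of each gene in the 3 comparisons, as the difference of mean log2(TPM + 1) with its standard error as a bar, filled where the limma adjusted p was under 0.05. The HetKO panel holds its 4 filled points to the left of 0, down to -1.24 for Tead4, while Tead4, Lats2 and Amotl2 lie to the right of 0 in HM minus HetKO.

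Ptpn21 (chr12:98676741-98737405, minus strand, GRCm38) was lower in HM than in WT cells. Its level in WT replicates 1 to 6 was 7.06, 7.76, 8.78, 7.14, 7.49 and 7.68 TPM. HM replicates 1 to 6 had 6.43, 6.52, 4.46, 5.59, 4.25 and 4.23 TPM. Every HM sample was below every WT sample, and the highest HM values were in replicates 1 and 2, which belong to different alike pairs. This gave a log2 fold change of -0.48 (standard error 0.11, limma adjusted p = 0.00322). Because the study had picked this gene among transcripts that fell in HM in these samples, this difference is a description and no independent test. It was -0.31 with samples centred on their median (limma adjusted p = 0.0230), and its limma adjusted p was 0.0592 with pair means. In bulk RNA, fewer cells with the transcript and less of it per cell cannot be told apart.

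HetKO replicates 1 to 6 had 7.17, 3.14, 7.25, 5.68, 3.37 and 7.01 TPM of Ptpn21. Replicates 2 and 5, the pair with high Eomes and low Thy1 among the cell type markers, were below all HM samples. Of the others, replicates 1 and 3 lay within the WT range. The part of those markers in the Ptpn21 level was not tested. HetKO against WT gave -0.44 (standard error 0.18, limma adjusted p = 0.132), and -0.16 without replicates 2 and 5 (limma adjusted p = 0.336). HM and HetKO samples overlapped, and the difference was -0.04 (standard error 0.20, limma adjusted p = 0.892). Without HetKO replicates 2 and 5 that difference was -0.33 (limma adjusted p = 0.0752). Among the genes within 5 Mb of Ptpn21, 40 were tested in HM against WT, 14 were higher and 17 lower. Over all genes tested 19.4% were higher and 32.0% lower, so both shares were larger among these neighbours. Their median log2 fold change was -0.15, beside -0.09 for all genes. Dicer1, the edited gene, lies on the same chromosome (chr12:104687742-104751952, minus strand). The study reports a clonal silencing of a miRNA cluster on that chromosome in HM cells. The part of the edit or of this silencing in the Ptpn21 level was not tested.

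Ptpn14 (chr1:189728268-189876695, plus strand), the closest relative of Ptpn21 among these genes, was lower than WT in both edited lines. WT replicates 1 to 6 had 10.51, 11.12, 11.19, 11.0, 11.61 and 9.39 TPM. HetKO had 8.53, 5.62, 7.49, 8.06, 5.72 and 5.92 TPM, all below WT. HM had 9.65, 5.51, 5.4, 8.43, 8.69 and 9.06 TPM. Only HM replicate 1 reached the WT range, and replicates 2 and 3, an alike pair, were the lowest. Against WT, the log2 fold change was -0.59 in HetKO (standard error 0.11, limma adjusted p = 0.00443). It was -0.45 in HM (standard error 0.13, limma adjusted p = 0.0130), which passed neither with samples centred (-0.27, limma adjusted p = 0.127) nor without WT replicates 2 and 5 (limma adjusted p = 0.0604). Without HM replicates 2 and 3 it was -0.24 (limma adjusted p = 0.0216). HM and HetKO differed by 0.14 (limma adjusted p = 0.511).

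Yap1 (chr9:7931999-8004596, minus strand), which encodes the coactivator YAP, was higher in HM than in WT cells by a small amount. WT samples ranged from 63.85 to 71.64 TPM with a median of 69.7. HM replicates 1 to 6 had 73.19, 74.07, 72.88, 76.17, 87.09 and 93.14 TPM, all above WT, with the alike pair 5 and 6 the highest. HM exceeded WT by 0.20 on the log2 scale (standard error 0.07, limma adjusted p = 0.0246) and by 0.38 with samples centred (limma adjusted p = 0.00152). A single fit of all 3 lines ended the call (limma adjusted p = 0.0518). The difference was 0.11 without HM replicates 5 and 6 (limma adjusted p = 0.0879), and leaving out any WT pair also ended the call (limma adjusted p from 0.0583 to 0.0744). HetKO ranged from 59.88 to 83.77 TPM around the WT range, with its highest values in replicates 2 and 5 (79.75 and 83.77), and differed from WT by 0.04 (limma adjusted p = 0.781).

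Wwtr1 (chr3:57455649-57575910, minus strand), which encodes TAZ, had the largest fall of the 10 genes in HM cells. WT replicates 1 to 6 had 26.49, 36.17, 37.62, 26.78, 36.42 and 37.67 TPM, and HM had 20.18, 29.04, 26.71, 20.07, 13.43 and 13.9 TPM. HM replicates 2 and 3 overlapped the WT pair 1 and 4, and replicates 5 and 6 were the lowest. HetKO, at 27.98 to 38.03 TPM, lay in the WT range except for replicate 3, just above it. On the log2 scale HM was at -0.72 against WT (standard error 0.18, limma adjusted p = 0.00563) and -0.67 against HetKO (standard error 0.18, limma adjusted p = 0.0117). Without HM replicates 5 and 6 these were -0.47 and -0.42 (limma adjusted p = 0.0235 and 0.0437), and the second was -0.56 without HetKO replicates 3 and 6 (limma adjusted p = 0.0715). HM replicates 5 and 6 thus held the lowest Wwtr1 and the highest Yap1 values of their line. HetKO and WT differed by -0.04 (limma adjusted p = 0.829).

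Of the TEAD factors, which tether YAP and TAZ to DNA, Tead2 (chr7:45215753-45233644, plus strand) was by far the most abundant. Its WT level was 203.27 to 255.7 TPM (median 245.6), HetKO was at 229.55 to 288.55 TPM (median 255.4) and HM at 173.67 to 208.21 TPM (median 187.8). All HM samples were below all HetKO samples, and 5 of 6 were below all WT samples. The log2 fold change of HM was -0.31 against WT (standard error 0.07, limma adjusted p = 0.00190) and -0.43 against HetKO (standard error 0.07, limma adjusted p = 0.000523). With samples centred the first of these was -0.13 (limma adjusted p = 0.0761). After quantile normalization it was -0.44 (limma adjusted p = 0.000487), so these scalings moved it opposite ways.

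Tead4 (chr6:128224288-128300823, minus strand), the TEAD factor of the trophoblast lineage, fell in HetKO cells more than any other member. WT replicates 1 to 6 had 5.26, 4.33, 3.62, 5.23, 4.63 and 4.0 TPM and HetKO had 1.53, 0.45, 2.07, 1.3, 0.68 and 2.65 TPM. No HetKO sample reached the WT range, and replicates 2 and 5, which had the highest Eomes, had the lowest Tead4. The log2 difference was -1.24 (standard error 0.21, limma adjusted p = 0.00262), a scale that understates changes of low genes, and -0.95 without replicates 2 and 5 (limma adjusted p = 0.00300). HM replicates 1 to 6 had 5.2, 1.63, 2.24, 6.55, 2.87 and 3.53 TPM. The HM pair 1 and 4 was at the top of the WT range or above it, and the other 4 were below it. HM exceeded HetKO by 0.91 (standard error 0.29, limma adjusted p = 0.0279), but by 0.59 without HM replicates 1 and 4 (limma adjusted p = 0.127) and by 0.62 without HetKO replicates 2 and 5 (limma adjusted p = 0.0944). Without HM replicates 5 and 6 or HetKO replicates 1 and 4 it was 0.94 in both cases (limma adjusted p = 0.0807 and 0.0740). The call also ended with no filter on low TPM (limma adjusted p = 0.0601) and under a test with unequal variances per gene. HM replicates 1 and 4, highest in Tead4, Tead1 and Lats2, were also the samples with the lowest Sall4, whose part in these results was not tested. HM against WT was at -0.33 (limma adjusted p = 0.247).

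Tead1 (chr7:112679318-112906807, plus strand) passed in no comparison and split within both edited lines. HetKO replicates 2 and 5 had 25.6 and 24.75 TPM and the other 4 had 9.26 to 13.34, on either side of the WT range of 13.72 to 18.34 TPM. HM replicates 1 and 4 had 18.71 and 22.06 TPM, above all WT samples, and the other 4 had 12.05 to 13.52, below all of them. Against WT it was at -0.09 in HM and -0.08 in HetKO (limma adjusted p = 0.595 and 0.846). Without HetKO replicates 2 and 5, Tead1 was at -0.43 in HetKO (limma adjusted p = 0.0333).

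Lats2 (chr14:57689662-57758388, minus strand), one of the 2 kinases that act on YAP and TAZ and itself their target, was low in HetKO cells. WT replicates 1 to 6 had 1.91, 2.99, 2.41, 2.11, 2.5 and 1.37 TPM, whereas all HetKO samples were at 0.77 to 0.93 TPM. The 6 HetKO values were below all others in the series and close together. Their mean of 0.848 TPM is under the filter of 1 TPM, which Lats2 passed through WT or HM. HM had 3.2, 1.42, 1.2, 3.82, 1.29 and 1.39 TPM, with replicates 1 and 4 above all WT samples and the other 4 at the low end of WT or below it. On the log2 scale Lats2 was at -0.78 in HetKO against WT (standard error 0.13, limma adjusted p = 0.00279) and 0.65 in HM against HetKO (standard error 0.21, limma adjusted p = 0.0282). With a pseudocount of 0.1, under which low genes move more, these were -1.25 and 1.04 (limma adjusted p = 0.00238 and 0.0209). The second was 0.33 without HM replicates 1 and 4 (limma adjusted p = 0.0719) and also lost its call without HetKO replicates 1 and 4 or 3 and 6 (limma adjusted p = 0.0798 and 0.0889). It passed neither with no filter on low TPM (limma adjusted p = 0.0510) nor with unequal variances per gene. HM and WT differed by -0.13 (limma adjusted p = 0.635), but by -0.45 without HM replicates 1 and 4 (limma adjusted p = 0.0283).

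Lats1 (chr10:7681214-7716460, plus strand), the other kinase, passed in no comparison. Its range was 10.75 to 13.47 TPM in WT, 11.79 to 15.13 in HetKO and 11.88 to 15.06 in HM. Its difference from WT was 0.15 in HetKO and 0.14 in HM (limma adjusted p = 0.282 and 0.135). In HM it passed with samples centred, at 0.32 (limma adjusted p = 0.00237).

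Amotl2 (chr9:102716672-102733418, plus strand), an angiomotin that binds YAP and is a target of it, was lower in HetKO than in either other line. WT replicates 1 to 6 had 19.41, 23.27, 21.63, 22.55, 26.81 and 16.07 TPM, and HetKO had 13.96, 11.83, 17.06, 11.53, 10.77 and 13.12 TPM. HetKO replicate 3 alone reached the WT range. HM had 25.32, 17.3, 16.35, 23.36, 27.43 and 30.05 TPM, with the pair 2 and 3 the lowest. It was at -0.69 in HetKO against WT on the log2 scale (standard error 0.13, limma adjusted p = 0.00493) and 0.77 in HM against HetKO (standard error 0.16, limma adjusted p = 0.00291). HM and WT differed by 0.09 (limma adjusted p = 0.665). Of the 3 members that are known targets of YAP and TAZ, Lats2 and Amotl2 were lower in HetKO than in either other line. Ptpn14 was instead lower than WT in both edited lines. The Lats2 call in HM against HetKO held in 3 of 6 fits with a pair left out, that of Amotl2 in all 6. Lats2, with a mean of 0.848 TPM in HetKO, passed the filter only through the other line. None of the calls of these 3 genes held with pair means.

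Leaving out one alike pair at a time showed which samples carried these results. Without HM replicates 1 and 4, 9 of the 10 genes differed between HM and WT, as did 7287 of all 14056 genes tested. Of the members, 2 were higher and 7 lower, Amotl2 being the exception. HM replicates 1 and 4 held the highest Tead1, Tead4 and Lats2 values of HM. Without WT replicates 2 and 5, 3 of the 10 differed, all lower in HM, beside 5853 of all 13990 genes tested. The 4 genes lower in HetKO than in WT passed whichever pair was left out, in fits that called 663 to 2508 of all genes. None of the 4 passed with pair means (limma adjusted p from 0.183 to 0.253). Tead1 or Ptpn21 passed beside them without HetKO replicates 2 and 5 or 3 and 6. In HM against HetKO, the count fell from 5 to 3 without HM replicates 1 and 4, without HetKO replicates 1 and 4 and without HetKO replicates 3 and 6. These fits called 3975, 3238 and 2873 of all genes, against 4765 with all samples.

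Shares within each gene family gave the balance between paralogs. Tead2 made up 90.1% ± 1.45 (SD, n = 6) of the summed TPM of Tead1 to Tead4 in WT, 91.8% ± 1.10 in HetKO and 89.2% ± 2.52 in HM. Tead4 made up 1.74% ± 0.39, 0.545% ± 0.347 and 1.71% ± 0.83. The Tead4 share was lower in every HetKO sample than in any WT sample. Wwtr1 was 32.6% ± 3.49 of Yap1 and Wwtr1 together in WT, 31.5% ± 5.44 in HetKO and 20.6% ± 6.44 in HM, where it ranged from 12.99% in replicate 6 to 28.2% in replicate 2. Lats2 was 15.2% ± 2.95 of the summed LATS kinases in WT, 5.90% ± 0.91 in HetKO and 13.04% ± 7.07 in HM. The HM value averaged the pair 1 and 4, at 21.22% and 23.0%, with 4 samples at 7.78% to 9.37%. Ptpn21 was 41.5% ± 2.45 of the pair of phosphatases in WT, 43.9% ± 7.15 in HetKO and 40.7% ± 8.30 in HM, so its share overlapped between all lines.

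**Figure D3:**
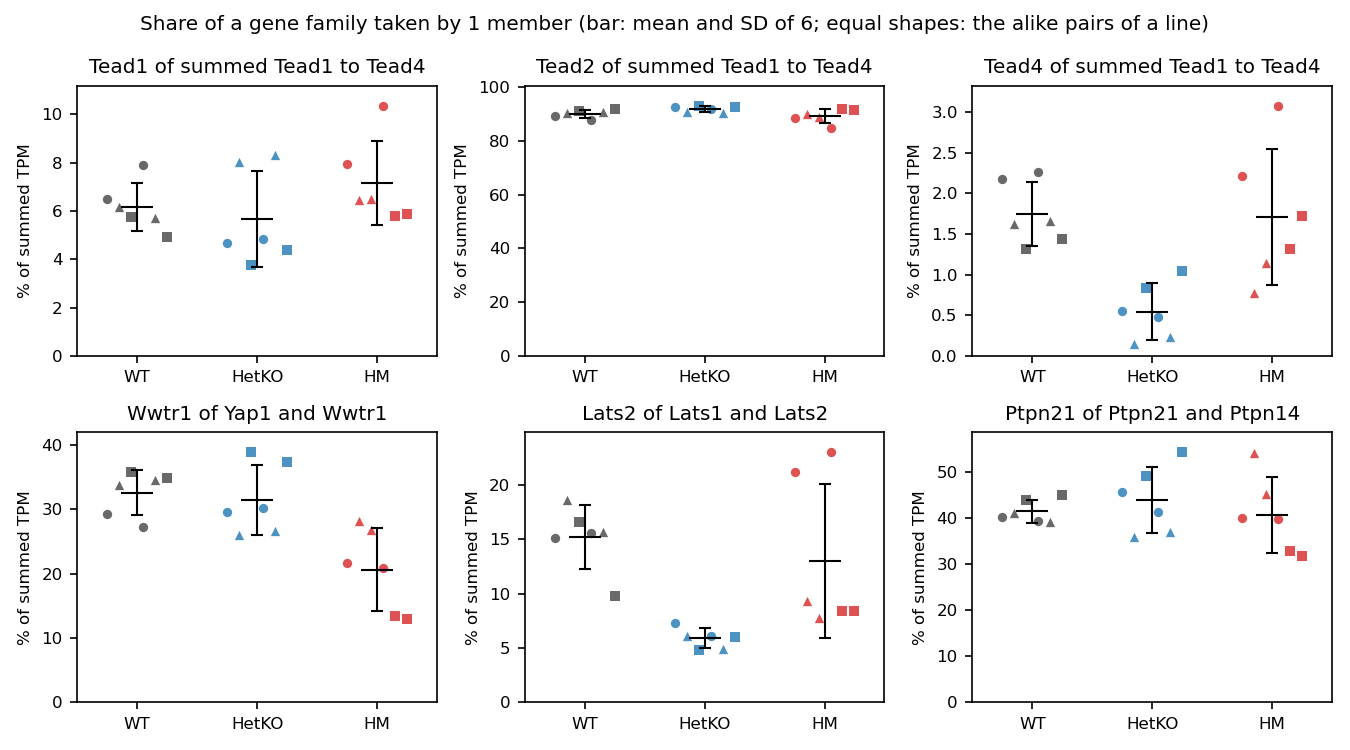
Share of the summed TPM of a gene family taken by 1 member in each sample, in percent on linear axes from 0, with the mean and SD of 6 samples per line as bars and alike pairs drawn with the same shape. The Tead4 and Lats2 shares are lowest in HetKO and split in HM, where replicates 1 and 4 (circles) are highest, and the Wwtr1 share in HM runs from 12.99% to 28.2%.

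Of 24 other genes of the pathway, all tested, 9 differed between HM and WT, 3 higher and 6 lower, against 51.4% of all genes, with a median log2 fold change of -0.04 beside -0.09 for all genes. This split changed with the scaling, to 9 higher and 4 lower with samples centred and 9 higher and 5 lower after quantile normalization. Among the kinases upstream of LATS, the paralogs Stk3 and Stk4 went opposite ways. Stk3 (MST2) was at 11.14 to 15.98 TPM in WT and 5.46 to 7.91 in HM, a log2 fold change of -0.90 (standard error 0.12, limma adjusted p = 6.55e-05). Stk4 (MST1) was at 33.69 to 38.84 TPM in WT and 45.5 to 50.3 in HM, a log2 fold change of 0.42 (standard error 0.05, limma adjusted p = 5.67e-05). Neither gene overlapped between the lines, and both passed with pair means (limma adjusted p = 0.0163 and 0.0235). Taok3, a kinase that activates the MST kinases, was at -0.80 (limma adjusted p = 0.00261), and Stk38, a kinase of the LATS family, at -0.46 (limma adjusted p = 0.00616) and as little as -0.27 with a pair left out.

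Of the adaptors on the list, Ajuba, Mob1b and Amotl1 passed in HM against WT. Ajuba, a LIM protein that restrains LATS, was at 32.28 to 37.61 TPM in WT and 49.26 to 82.02 in HM, a log2 fold change of 0.75 (standard error 0.13, limma adjusted p = 0.000356). Mob1b, the cofactor of LATS, was at 0.32 (limma adjusted p = 0.00178). Amotl1, a paralog of Amotl2, fell from a mean of 11.3 to 5.11 TPM without overlap, at -1.02 (standard error 0.15, limma adjusted p = 0.000130). Amotl2 itself was at 0.09 in this comparison, which did not pass. With pair means Ajuba and Amotl1 passed (limma adjusted p = 0.0251 and 0.0167) and Mob1b, Taok3 and Stk38 did not (limma adjusted p = 0.0754, 0.0523 and 0.0719).

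In HetKO against WT, 2 of the 24 genes differed, both lower, against 10.2% of all genes, with a median of -0.10 beside -0.03. Stk38 was at -0.34 and Map4k4, another kinase upstream of LATS, at -0.24 (limma adjusted p = 0.0346 and 0.0397). These calls held in 1 and 2 of the 6 fits that left out a pair, and neither passed with pair means (limma adjusted p = 0.443 and 0.474). Map4k4 was at -0.19 with samples centred (limma adjusted p = 0.133). In HM against HetKO, 5 differed, 3 higher and 2 lower, against 34.6% of all genes, with a median of 0.02 beside -0.05, and with samples centred 6 were higher and 2 lower. Ajuba was at 0.95 and Wtip, a further LIM protein, at 0.53 (limma adjusted p = 0.000266 and 0.00130). Amotl1 was at -0.89 and Stk3 at -0.83 (limma adjusted p = 0.00247 and 0.000208), and Stk4 was the remaining gene that was higher. All 4 of the genes given with values here did not overlap between HM and HetKO, and of them Ajuba alone passed with pair means (limma adjusted p = 0.0447).

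A list of 19 published YAP and TAZ targets, without the members, moved in both directions in HM cells. Of the 13 tested in HM against WT, 2 were higher and 3 lower, against 51.4% of all genes called, with a median of -0.27 beside -0.09 for all genes, and with samples centred 4 were higher and 2 lower. Fjx1, a secreted regulator of planar polarity, was at 4.89 to 6.28 TPM in WT and 20.73 to 44.97 in HM, a log2 fold change of 2.17 (standard error 0.20, limma adjusted p = 6.57e-06). F3, which encodes tissue factor, was at 0.26 (limma adjusted p = 0.0442). Igfbp3, an insulin-like growth factor binding protein, was at 33.51 to 73.13 TPM in WT and 9.27 to 32.27 in HM, a log2 fold change of -1.50 (standard error 0.33, limma adjusted p = 0.00220). Nuak2, a kinase of the AMPK family, was at -1.30 (limma adjusted p = 5.74e-05), and Gadd45a, a stress response gene, at -0.48 (limma adjusted p = 0.0173). Fjx1, Igfbp3 and Nuak2 passed with pair means (limma adjusted p = 0.00882, 0.0460 and 0.0130), F3 and Gadd45a did not (limma adjusted p = 0.226 and 0.107). Their calls also held in 1 and 3 of the 6 fits with a pair left out, and Gadd45a was at -0.30 with samples centred (limma adjusted p = 0.111).

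In HetKO against WT, 4 of 14 tested targets were lower and none was higher, against 6.44% of all genes lower and 3.71% higher, with a median of -0.22 beside -0.03. Igfbp3 was at 8.57 to 12.08 TPM in HetKO, below all WT samples. Its log2 fold change of -2.15 (standard error 0.19, limma adjusted p = 1.81e-05) passed with pair means (limma adjusted p = 0.0373). Myof, a membrane repair protein, was at -0.82 (limma adjusted p = 0.0454), held in 2 of 5 fits with a pair left out, and had a limma adjusted p of 0.466 with pair means. It averaged 0.677 TPM in HetKO and passed the filter only through WT. The other 2 were Ccn1 and Dock5. Between HM and HetKO, 3 of 14 were higher and 1 lower, against 34.6% of all genes called, with a median of 0.17 beside -0.05. Fjx1 was at 1.56, Ccn2, a matricellular protein widely used as a readout of YAP, at 1.23, and Nuak2 at -0.91 (limma adjusted p = 0.00399, 0.00895 and 0.0278), none of which passed with pair means (limma adjusted p = 0.110, 0.145 and 0.203). The Ccn2 call was lost without HM replicates 5 and 6 (limma adjusted p = 0.0514), and the Nuak2 call held in 2 of 6 fits with a pair left out. Ccn2 varied widely within WT, from 0.95 to 13.76 TPM, and was at 0 to 2.25 TPM in HetKO and 1.65 to 4.68 in HM. With a mean of 0.9 TPM in HetKO, it passed the filter against HM only through HM.

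**Figure D4:**
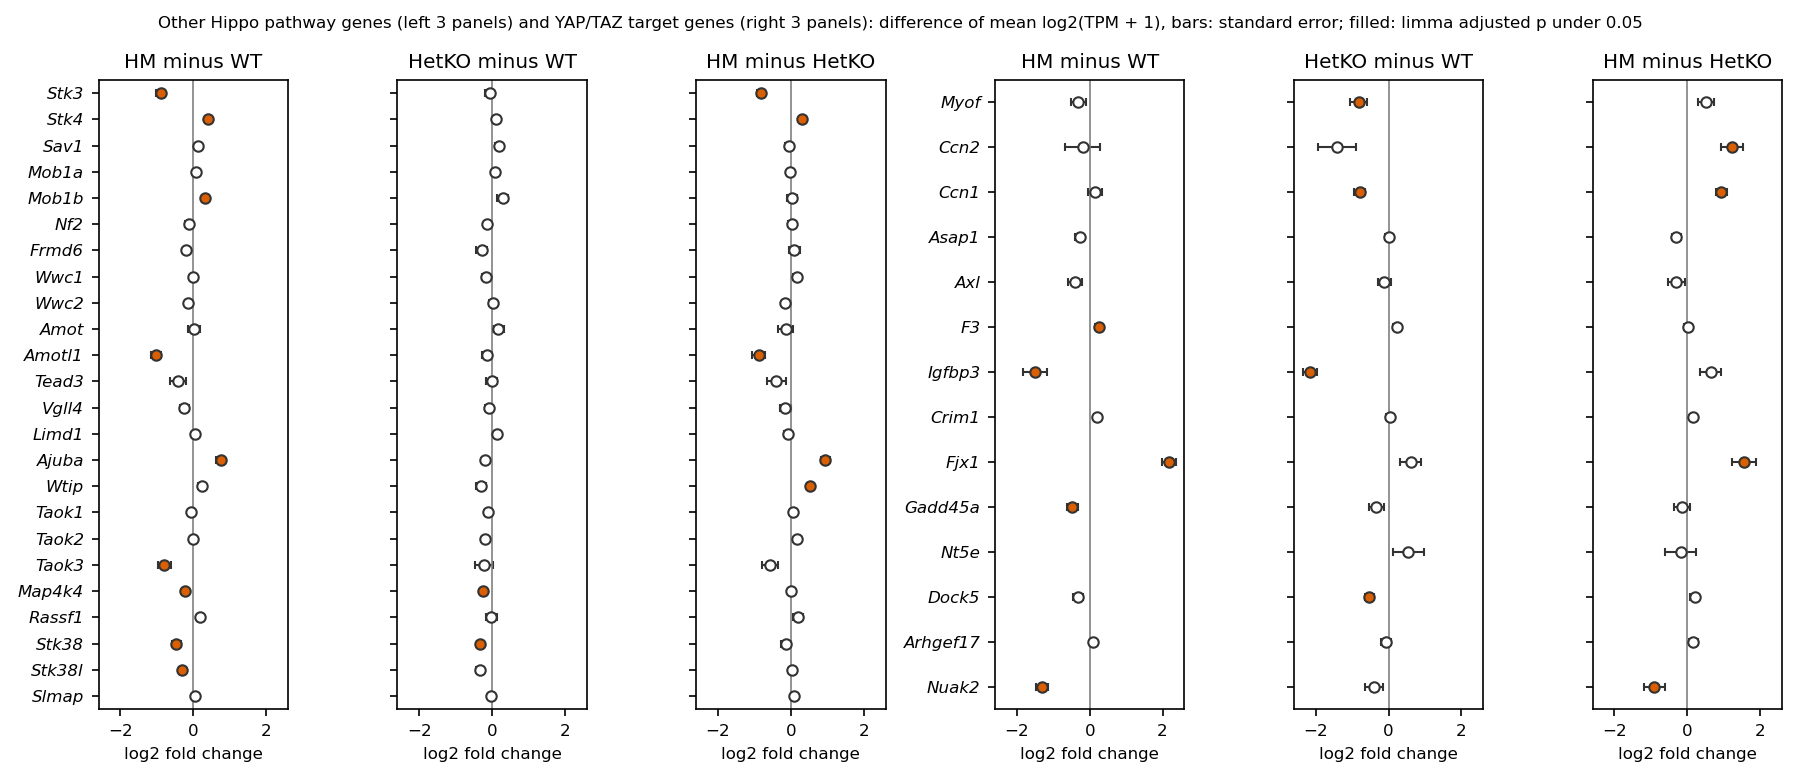
Log2 fold change with its standard error for 24 other Hippo pathway genes (left 3 panels) and the YAP and TAZ targets tested (right 3 panels) in each comparison, filled where the limma adjusted p was under 0.05. Filled points lie on both sides of 0 in HM minus WT, from -1.50 for Igfbp3 to 2.17 for Fjx1, and all 4 filled targets in HetKO minus WT lie left of 0.

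A list of 7 relatives and partners of PTPN21 was read in HM against WT. Of these 6 were tested, 3 were higher and 3 lower, where 51.4% of all genes were called, and Bmx, a kinase that binds PTPN21, had a mean below 1 TPM in each line. Of the other FERM phosphatases, Ptpn3 was at 0.83 and Ptpn4 at 0.33, whereas Ptpn13 was at -1.12 (limma adjusted p = 9.95e-05, 0.00981 and 4.20e-06). Ptpn13 was at 25.36 to 27.61 TPM in WT and 9.78 to 15.04 in HM. The kinase Src was at -0.31, the mitochondrial anchor Akap1 at 0.22 and the kinesin Kif1c at -0.28 (limma adjusted p = 0.0404, 0.0422 and 0.0123). Ptpn3 and Ptpn13 passed with pair means (limma adjusted p = 0.0142 and 0.00815), the other 4 did not (limma adjusted p from 0.0954 to 0.227). With samples centred Src was at -0.14 and Kif1c at -0.10 (limma adjusted p = 0.274 and 0.211), and the calls of Src, Akap1 and Kif1c each held in 3 of 6 fits with a pair left out.

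Over the 18 samples, the pattern of Ptpn21 was followed most closely by genes outside the pathway. Among the 13955 genes that averaged 1 TPM or more, the highest Pearson correlations of log2(TPM + 1) were 0.96 for Mgst3, a glutathione transferase of membranes, 0.96 for Ccpg1, a receptor for autophagy of the endoplasmic reticulum, 0.96 for Gulo, 0.96 for Dmxl2 and 0.95 for Sec14l1. Taken as deviations from the mean of each line, these were 0.92 to 0.94. Of the members, Ptpn14 was at 0.60 and ranked 3008th, and Yap1 was lowest at -0.75. Within lines, Ptpn21 and Yap1 were at -0.78, Ptpn14 and Amotl2 at 0.77, and Yap1 and Wwtr1 at -0.63. These correlations are descriptions over samples that share lines and alike pairs, and HetKO replicates 2 and 5, low in Ptpn21 and high in Yap1, weigh in them.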

How the data were processed

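Poly(A)-selected stranded mRNA libraries of WT, HetKO and HM cells were sequenced as read pairs. The authors merged pairs with BBMerge, estimated abundance with RSEM and deposited TPM per gene, rounded to 2 decimals. The submitters' processing notes also name cutadapt, STAR and mm10. TPM keeps no depth, so no interval or floor was set. Each sample summed to between 999999.2 and 1000000.5 TPM.

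Groups and replicate numbers came from the sample labels. Each comparison used its own 12 samples. A gene entered it if those samples averaged 1 TPM or more. The test was limma (version 3.58.1, under R 4.3.3) with a variance trend and no covariates, fitted to log2(TPM + 1). Its p-values were Benjamini-Hochberg adjusted over every gene that entered, with a threshold of 0.05. The fit was tested on simulated data of independent samples. Those data held no alike pairs, so the test cannot show how the pairs affect the p-values. Summaries were computed in Python 3.11.15 (pandas 2.3.3, numpy 2.4.6). All 55450 identifiers matched GENCODE M21, which gave positions and 3′ UTRs. Genes named beside the members were the largest called changes of each list (up to 4 each way for HM against WT, up to 2 each way otherwise), all 7 relatives and partners of PTPN21 and the 5 genes most correlated with Ptpn21. Model gene names were left out there. The other members of a list were named where 5 or fewer passed.

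The members and lists were chosen with earlier results of these data known. Alternatives tried were other filters, a pseudocount of 0.1, centring on the sample median, quantile normalization, a joint fit of 3 lines, an unequal-variance test, a replicate block, means of alike pairs, and leaving out alike pairs. Leaving out pairs other than HetKO 2 and 5 and HM 2 and 3 was added after the data were seen. Replicate numbers were not taken as pairing: same-numbered samples of HM and WT, HetKO and WT, and HM and HetKO had mean correlations of 0.005, 0.062 and 0.021 in their deviations from line means. One gene of the pathway list is not reported here.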

Additional observations from a re-analysis of the deposited data

How the results depend on the processing

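Counts are of called genes among the members, the other Hippo genes and the YAP/TAZ targets, in that order. Means of alike pairs gave 0, 4 and 3 in HM against WT (5, 9 and 5 in the test as reported), 0, 0 and 1 in HetKO against WT (4, 2 and 4) and 0, 1 and 0 in HM against HetKO (5, 5 and 4). Here 3 replicates per line stand in for 6, and 3414, 35 and 454 of all genes were called (7220, 1421 and 4765 in the test as reported). Leaving out alike pairs gave 3 to 9, 8 to 11 and 3 to 6 in HM against WT, 4 to 5, 0 to 3 and 2 to 5 in HetKO against WT, and 3 to 5, 5 to 8 and 3 to 5 in HM against HetKO. Of all genes, those fits called 5563 to 7442, 663 to 2508 and 2785 to 6460 in the 3 comparisons. Pairs other than HetKO 2 and 5 and HM 2 and 3 were added after seeing the data. Quantile normalization gave 14 other Hippo genes in HM against WT, and centring 8 in HM against HetKO, beside 7111 and 4861 of all genes. A mean of at least 5 TPM gave 2 members in HetKO against WT and 3 in HM against HetKO, where Tead4 and Lats2 were no longer tested. That filter called 1007 of 10422 and 3907 of 10229 genes. No filter gave 3 members in HM against HetKO and 0 other Hippo genes in HetKO against WT (limma), and the unequal-variance test gave the same 2 counts, 3 and 0. Of all genes, no filter called 4560 and 1456 in these comparisons and the unequal-variance test 3849 and 852. Under both settings, Tead4 and Lats2 lost their calls in HM against HetKO. For these the cause was not tested. With the replicate block the member counts were 5, 4 and 5, as without it, and numbers pair no samples. The block gave 9, 1 and 5 other Hippo genes and 5, 3 and 5 targets, beside 6889, 1206 and 4200 of all genes.

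Some uncalled differences changed sign. With samples centred, Tead1 was at 0.085 and Lats2 at 0.046 in HM against WT, Wwtr1 at 0.011 in HetKO against WT, and Ptpn21 at 0.076, Tead1 at 0.10 and Lats1 at 0.11 in HM against HetKO. After quantile normalization Tead1 was at 0.090 and Lats2 at 0.10 in HM against WT, and Ptpn21 at 0.042, Tead1 at 0.13 and Lats1 at 0.12 in HM against HetKO. Leaving out pairs moved HM against WT between -0.31 and 0.033 for Tead1, -0.45 and 0.032 for Lats2, and -0.075 and 0.29 for Amotl2. It moved HetKO against WT between -0.066 and 0.14 for Yap1, -0.20 and 0.045 for Wwtr1, and -0.43 and 0.19 for Tead1. It moved HM against HetKO between -0.33 and 0.14 for Ptpn21, -0.28 and 0.33 for Tead1, and -0.10 and 0.062 for Lats1. TPM keeps no depth, so what depth limits could not be set.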
